A study of Mus musculus with 6 samples.

Results

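The genes described here encode the phosphoinositide 3-kinase (PI3K), AKT and mTOR signalling pathway: PI3K subunits, phosphoinositide phosphatases, AKT kinases and their regulators, the mTOR complexes, the TSC and Rag switches, and the AMPK branch that restrains growth. They are 35 genes picked by symbol for their known place in the pathway, and all 35 were found among the 43629 genes of the deposited table. The symbol Rps6kb2 stood on 2 rows, of which the copy on an assembly patch held 0 reads in every library and was left out. The members were chosen by name and not by their values, although earlier results of these data were known when they were chosen.

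RNA was sequenced from 3 medulloblastomas of Math1-Cre SmoM2.c/wt mice and from 3 cerebella of SmoM2.c/wt mice, which hold the allele but no Cre. The SmoM2 allele encodes an active mutant of Smoothened, the signal transducer of the Hedgehog pathway. Math1-Cre turns it on in granule neuron progenitors of the cerebellum and their descendants, so the tumors model the Hedgehog class of medulloblastoma. All mice were female, on the C57BL/6 background, collected at postnatal day 35, and the design text calls the controls littermates. Tumor tissue is therefore compared with a whole mature cerebellum and not with normal progenitors of the same age.

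PI3K phosphorylates a membrane lipid, and the product recruits the kinases PDK1 and AKT. AKT in turn relieves the brake that the TSC complex puts on the small GTPase RHEB, which activates mTOR complex 1, while amino acids act on the same complex through the Rag GTPases at the lysosome. Inositol lipid phosphatases and PHLPP phosphatases work against AKT, and AMPK, activated by the kinase LKB1 when energy is low, works against mTOR complex 1. In granule neuron progenitors, insulin-like growth factor signals through this pathway and cooperates with Sonic hedgehog in driving proliferation. Transcript levels say nothing of the phosphorylation by which these proteins are regulated.

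The libraries held 44902217 to 69550200 reads. Every member was well covered, with at least 131 reads in each library. Values are normalized counts, which are reads divided by 1 size factor per library, given per library or as a mean with its SD over the 3 libraries of a group (± SD, n = 3). Whether the libraries come from separate mice is not stated, so p-values reflect how far these samples spread, and part of that spread may be technical. Marker levels followed the labels. Summed over 8 genes, markers of granule neuron progenitors ran from 2764 to 3665 in control and from 190800 to 201534 in tumor. These include Mki67 and Top2a, which mark dividing cells of any type and make up much of the tumor sum. Atoh1 alone was at 5.88 ± 5.41 in control and 4361 ± 422 in tumor, and all 8 genes rose. Summed markers of mature granule neurons (8 genes, 260354 to 293379 against 21378 to 37039), Purkinje cells (8 genes, 496630 to 504653 against 42818 to 83332), GABAergic interneurons (6 genes, 63127 to 64952 against 5592 to 9231) and oligodendrocytes (8 genes, 683392 to 836166 against 63522 to 161899) were lower in tumor. Microglia and macrophage markers (9 genes) were higher in tumor, at 17704 to 18984 against 5422 to 6629. Markers of astrocytes and Bergmann glia (6 of 8), endothelial and mural cells (6 of 8) and choroid plexus (7 of 7) mostly fell. No list had a marker at 0 in all libraries. In bulk tissue, fewer cells of a type and less RNA per cell cannot be told apart. The part of these shifts in cell content in the results below was not tested, apart from the values given beside them.

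Most of the pathway differed modestly between tumor and cerebellum, and not in 1 direction. Of the 35 genes, 8 rose, 15 fell and 12 did not pass limma's test, with calls made under 0.05 after Benjamini-Hochberg adjustment across 22117 genes. That is 65.7% of members called, against 62.1% of all genes tested, which include genes expressed far below any member. A stricter filter, with 3 or more libraries above 50 normalized counts, kept 14891 genes, of which 5782 rose and 5645 fell. It kept all 35 members, of which 8 rose and 15 fell. The members were thus called less often than these better expressed genes, with a smaller share of rises and a slightly larger share of falls. These differences in share were not tested. Shares by fold or overlap were not computed for that set. The members that rose were 22.9% of the list (30.6% of all genes) and those that fell 42.9% (31.5% of all genes). Their median log2 fold change was -0.13, beside -0.02 over all genes tested. Differences were small: 27 of 35 members changed or differed by less than 2-fold, and the 8 called at 2-fold or more were 22.9% of the list, beside 38.0% of all genes. Of all genes, 17.5% rose and 20.5% fell by that much. Those 8 were Akt1, Akt1s1, Pik3cg and Inppl1, 4 that rose, and Inpp4b, Pik3cb, Rictor and Rragd, 4 that fell. All 3 tumors lay outside the range of the controls for 25 members (71.4%), 8 above and 17 below, against 67.7% of all genes tested (33.2% above and 34.5% below). Among the tumors, library 2 was the highest for 15 members and the lowest for 15. Library 1 was the highest for 5 and the lowest for 14, and library 3 for 15 and 6.

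**Figure D1:**
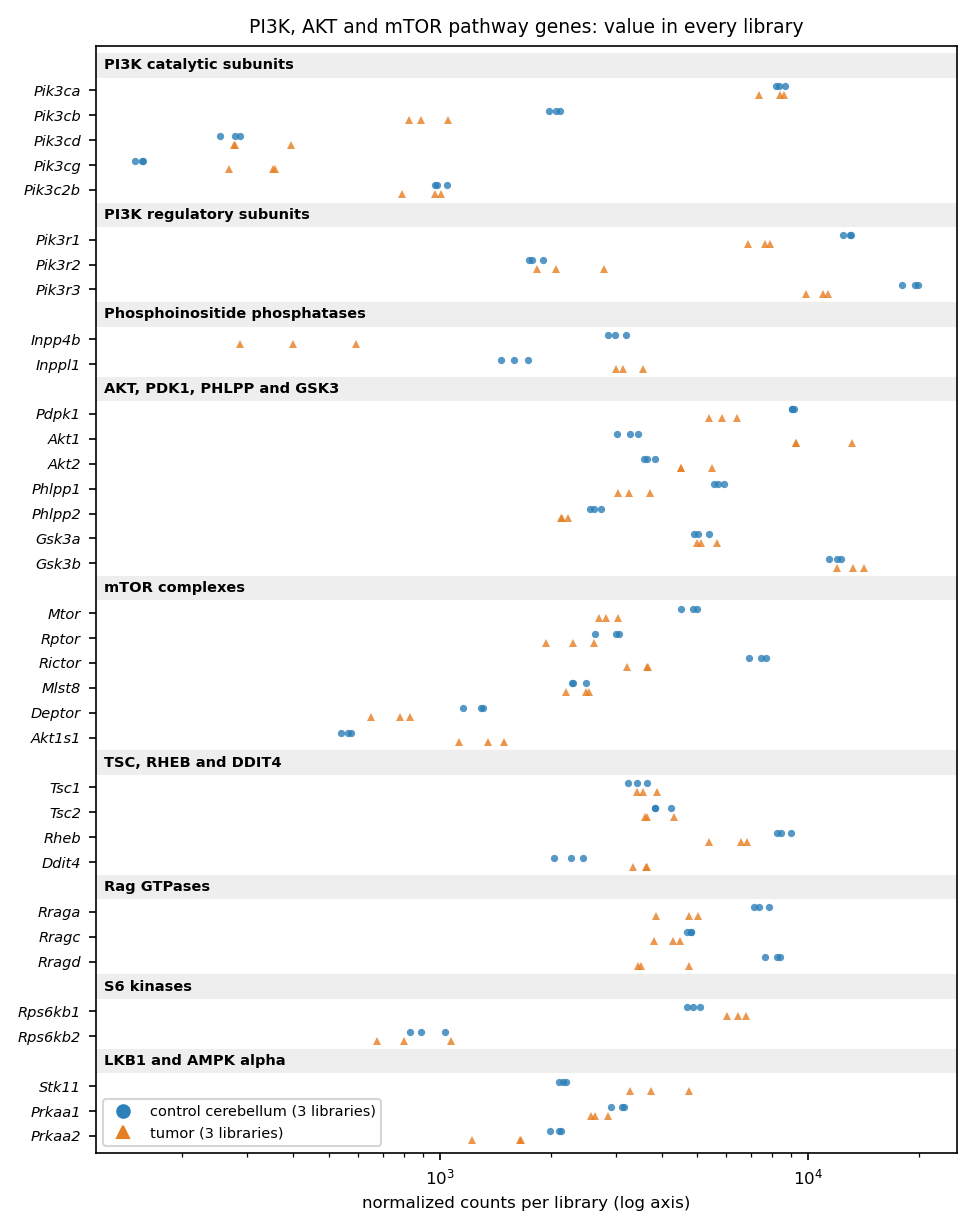
Normalized counts (log axis) of the 35 pathway genes in each of 3 control libraries (circles) and 3 tumor libraries (triangles), grouped by role. Inpp4b, Akt1, Akt1s1 and Rictor show wide gaps between the groups, while the libraries of both groups interleave for genes such as Tsc1, Tsc2, Mlst8 and Gsk3a.

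The largest rise was that of Akt1, which encodes the most widely expressed AKT kinase. The largest fall was that of Inpp4b, which encodes a phosphatase that removes the 4-position phosphate from a PI3K product. A further contrast was within the Rag GTPases, where Rragd fell and its close relative Rragc did not pass. The sequence just upstream of these 4 genes is shown because they mark the extremes of the list and a pair of relatives that separated. The strand is read 5′ to 3′ towards the gene, from RefSeq on GRCm38.p6, in the 250 bases before the annotated start (244 for Inpp4b, where the deposited gene begins earlier). Of the windows of Akt1, the one that lies outside the deposited gene is shown, and capitals mark a match to a motif named below.
Akt1 (chr12:112674885-112675134, minus strand): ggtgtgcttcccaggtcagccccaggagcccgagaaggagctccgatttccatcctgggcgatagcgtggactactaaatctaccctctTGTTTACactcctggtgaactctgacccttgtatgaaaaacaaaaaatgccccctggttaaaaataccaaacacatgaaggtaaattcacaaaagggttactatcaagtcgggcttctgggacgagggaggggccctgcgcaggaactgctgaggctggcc
Inpp4b (chr8:81342312-81342555, plus strand): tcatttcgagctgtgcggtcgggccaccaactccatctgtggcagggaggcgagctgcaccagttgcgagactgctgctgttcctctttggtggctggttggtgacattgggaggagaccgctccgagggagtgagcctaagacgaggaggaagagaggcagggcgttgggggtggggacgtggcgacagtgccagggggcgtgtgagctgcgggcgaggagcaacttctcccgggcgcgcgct
Rragc (chr4:123917183-123917432, plus strand): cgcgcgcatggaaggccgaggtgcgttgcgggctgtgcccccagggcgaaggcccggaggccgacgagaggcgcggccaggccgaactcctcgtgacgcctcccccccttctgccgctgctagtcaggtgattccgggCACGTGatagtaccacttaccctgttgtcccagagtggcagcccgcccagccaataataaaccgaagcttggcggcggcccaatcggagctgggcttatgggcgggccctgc
Rragd (chr4:32982748-32982997, plus strand): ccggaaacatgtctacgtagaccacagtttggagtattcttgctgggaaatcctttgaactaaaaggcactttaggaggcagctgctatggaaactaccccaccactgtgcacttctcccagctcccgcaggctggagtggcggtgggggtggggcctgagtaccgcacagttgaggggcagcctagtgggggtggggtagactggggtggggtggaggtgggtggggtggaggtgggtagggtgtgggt

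Windows of 250 bases were at hand for 33 of the 35 members, 45 windows in all. They were searched on both strands, among 32851 windows of all genes, for the E-box CACGTG bound by MYC family and TFEB family factors, the GLI motif GACCACCCA and the FOXO motif TGTTTAC. The E-box stood in a window of Rheb and in that of Rragc, 2 of 45 windows, against 6.02% of all windows. The FOXO letters stood in a window of Akt1 and in 1 of Pik3cg, against 3.17% of all windows. The Rheb and Pik3cg matches lie within the bounds of the deposited genes. The GLI letters stood in 0 of 45 member windows and in 0.225% of all windows. Such matches are descriptions of these windows and not binding sites. Base composition differed more: the median GC content of the member windows was 60.4%, and that of all windows 52.4%, with medians of 19 and 6 CpG dinucleotides. The windows of all genes were not limited to genes expressed like the members, and no such set was compared. Among the printed windows, that of Rragc had 24 CpG dinucleotides and that of Rragd had 5.

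The catalytic subunits of PI3K did not move together. Pik3ca, the catalytic alpha subunit that is frequently mutated in human cancers, was at 8348, 8629 and 8194 normalized counts in the controls and 8575, 7357 and 8381 in the tumors. The groups overlapped, and its log2 fold change of -0.05 had a 95% interval of -0.24 to 0.13. Pik3cb, the beta subunit that also responds to G protein-coupled receptors, had 1975, 2117 and 2073 in control and 888.3, 823.1 and 1053 in tumor. Every tumor lay below every control, a fall of 2.24-fold (log2 -1.16 ± 0.11 SE, limma adjusted p = 9e-06). Pik3cg, the gamma subunit, and Pik3cd, the delta subunit, are best known from white blood cells. Pik3cg rose 2.09-fold, from 148.5, 155.8 and 156.1 to 351.7, 267.4 and 356.1 (limma adjusted p = 0.000481), with no overlap between the groups. Pik3cd stood at 272.4 ± 17.8 and 316.0 ± 67.6 and did not pass, with a 95% interval of -0.21 to 0.60 for its log2 fold change. Beside the rise of Pik3cg, 8 of 9 microglia and macrophage markers rose (list median 1.36 on the log2 scale). Of 8 markers of T, B and NK cells, 3 fell and 5 did not pass, most at low values. They summed to 178.3 to 249.1 in control and 61.4 to 93.9 in tumor. Trac alone, at 153.4 ± 25.5 and 29.6 ± 8.49, made up most of the control sum. The part of microglia in the Pik3cg rise was not tested. Pik3c2b, a class II PI3K, did not pass at 1001 ± 40.5 and 922.7 ± 116.

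Set per kilobase of exon, which allows genes to be compared, Pik3ca made up 72.7% ± 0.765 of the summed class I catalytic transcripts in control and 80.4% ± 1.27 in tumor. The share of Pik3cb went from 22.5% ± 0.518 to 11.5% ± 1.01, that of Pik3cg from 1.43% ± 0.0380 to 3.46% ± 0.303, and that of Pik3cd from 3.42% ± 0.215 to 4.62% ± 1.35. The alpha subunit therefore headed the class in every library, and the leukocyte-type subunits stayed a small share.

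Of the regulatory subunits, which stabilise the catalytic subunits and dock them on phosphorylated receptors, 2 of 3 fell. Pik3r3, the gene of a short regulatory subunit that is abundant in brain, was at 18034, 19480 and 19855 in control and 10942, 9877 and 11341 in tumor, a fall of 1.79-fold (log2 -0.84 ± 0.08 SE, limma adjusted p = 1.56e-05). Pik3r1, which encodes p85 alpha and its shorter forms, fell 1.72-fold from 13112, 13008 and 12437 to 7645, 6885 and 7869 (limma adjusted p = 1.66e-05). Both sets of tumors lay wholly below the controls. In the annotation used for exon lengths, the gene model Gm49337 on the same strand covers 24.3% of the exonic bases of Pik3r3. That symbol was not found among the deposited genes, so whether the overlap affected the Pik3r3 count is not known. Pik3r2, the gene of p85 beta, had 1743, 1912 and 1775 in control and 1831, 2791 and 2070 in tumor and did not pass. Tumor library 2 stood above the other tumors for this gene. Summed per kilobase, regulatory transcripts summed to 5317 ± 170 normalized counts per kb in control and 3298 ± 105 in tumor, while catalytic transcripts were at 1271 ± 31.3 and 1109 ± 78.2. Within the regulatory class the share of Pik3r2 went from 8.15% ± 0.289 to 16.2% ± 3.97, and Pik3r3 stayed the main transcript at 67.8% ± 1.43 and 61.3% ± 2.91.

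The inositol lipid phosphatases of the list moved in opposite directions. Inpp4b (ENSMUSG00000037940, mm10 chr8:81342556-82125036, plus strand) was at 2862, 2988 and 3199 in control and 398.6, 287.3 and 592.3 in tumor. The groups were far apart, and the fall of 7.37-fold (log2 -2.88 ± 0.22 SE, limma adjusted p = 1.8e-06) was the largest of the list. It was also the member that varied most among tumors, with a coefficient of variation of 36.2%, where the median over members was 10.5% in tumor and 4.70% in control. Tumor library 3 had the highest Inpp4b value of the tumors. It also had the highest summed markers of 4 lists of mature cells. In tumor libraries 1, 2 and 3 these were 42818, 47468 and 83332 for Purkinje cells, 5592, 5860 and 9231 for interneurons, 21378, 23395 and 37040 for mature granule neurons, and 84193, 63522 and 161899 for oligodendrocytes. Oligodendrocyte markers, like Inpp4b, were lowest in library 2, and the neuronal lists were lowest in library 1. Library 3 was also highest for endothelial and mural cells (5245.1, 7902.9 and 10171.9) and for astrocytes and Bergmann glia (151547.6, 146339.0 and 156635.5). It was far lowest for choroid plexus (21528.4, 17700.5 and 311.9). Progenitor, microglia and macrophage, and T, B and NK cell markers were highest in library 1. All genes of the neuronal and oligodendrocyte lists fell, and the part of cell content in the fall of Inpp4b was not tested. Inppl1, which encodes the SHIP2 phosphatase that removes the 5-position phosphate from the main PI3K product, rose 2.02-fold from 1470, 1592 and 1734 to 3144, 3555 and 3002 (limma adjusted p = 1.25e-05). Exons of other genes on the opposite strand cover 20.3% of its exonic bases. Of these, Phox2a was at 6.45 and 0.722 and Gm10602 at 21.5 and 21.5 normalized counts in control and tumor. How reads on shared bases were counted is not given, and the part of the overlap was not tested.

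Akt1 and Akt2 rose, while Pdpk1, Phlpp1 and, less firmly, Phlpp2 fell. Akt1 (ENSMUSG00000001729, mm10 chr12:112653821-112674884, minus strand) had 3023, 3284 and 3452 normalized counts in control and 9274, 13126 and 9279 in tumor. The lowest tumor was far above the highest control, a rise of 3.21-fold (log2 1.68 ± 0.13 SE, limma adjusted p = 2.74e-06). Tumor library 2 stood above the other tumors, and the log2 fold change was 1.51 without it. Akt2, the isoform best known for insulin action, rose 1.31-fold from 3690 ± 133 to 4842 ± 565 (limma adjusted p = 0.00561). Per kilobase of exon, Akt1 went from rank 13 to rank 2 among the 35 members, and its share of the pair from 60.5% ± 1.90 to 79.0% ± 1.43.

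Pdpk1 encodes PDK1, the kinase that phosphorylates the AKT activation loop. It fell 1.55-fold, from 9052, 9025 and 9144 to 5834, 5385 and 6425 (limma adjusted p = 0.00011), with the controls close together and the tumors all below them. The PHLPP phosphatases, which dephosphorylate AKT, fell: Phlpp1 1.71-fold from 5724 ± 180 to 3349 ± 350 (limma adjusted p = 4.43e-05) and Phlpp2 1.21-fold from 2638 ± 92.3 to 2173 ± 53.5 (limma adjusted p = 0.0111). The Phlpp2 call was lost with library totals (limma adjusted p = 0.0818) and without control library 2 (0.0560), and its FDR in the authors' deposited table was 0.0720. Gsk3a and Gsk3b, the genes of glycogen synthase kinase 3, which AKT inhibits, did not pass. Their 95% intervals ran from -0.15 to 0.22 and from -0.05 to 0.34 on the log2 scale. An opposite-strand gene, 9130221H12Rik, at 343.1 and 370.0 normalized counts, shares 28.3% of the exonic bases of Gsk3a.

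**Figure D2:**
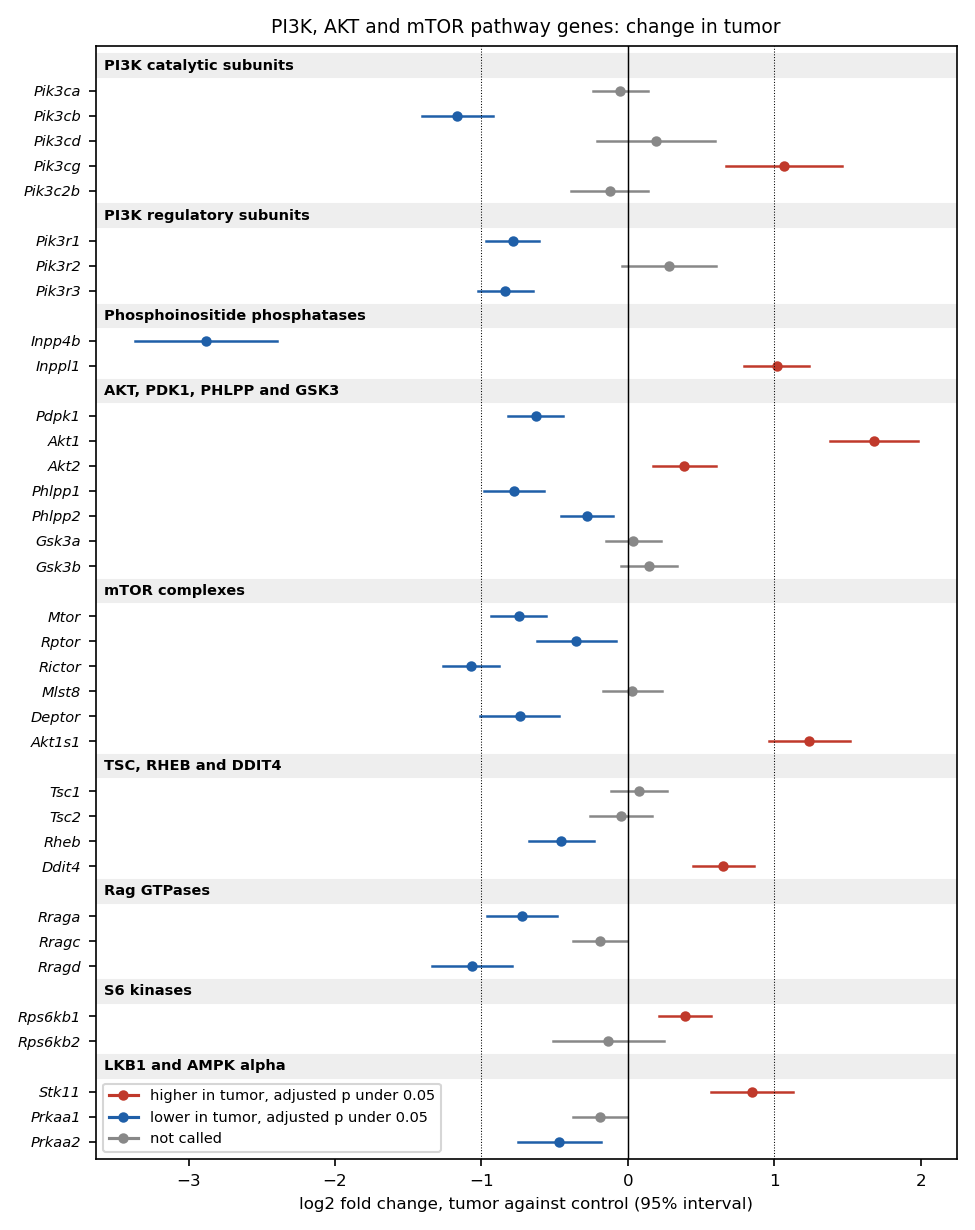
Log2 fold change of tumor against control (points) with the 95% interval of limma's fit (lines) for the 35 genes by role, with dotted lines at a 2-fold difference. The 8 rises (red) and 15 falls (blue) are spread over the roles, and Inpp4b at -2.88 and Akt1 at 1.68 are the extremes.

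Of the 6 members that belong to the mTOR complexes, 4 fell, 1 rose and 1 did not pass. Mtor, the gene of the kinase itself, fell 1.68-fold from 4511, 4982 and 4854 to 2697, 3040 and 2821 (log2 -0.75 ± 0.08 SE, limma adjusted p = 3.06e-05). Rictor, which defines mTOR complex 2, the complex that phosphorylates AKT, was at 7459, 7690 and 6921 in control and 3217, 3641 and 3670 in tumor. It fell 2.10-fold (limma adjusted p = 2.85e-06), and both genes separated the groups fully. Rptor, which defines mTOR complex 1, had 2636, 3062 and 3005 in control and 1937, 2627 and 2295 in tumor, a fall of 1.28-fold (limma adjusted p = 0.0273) with the highest tumor just below the lowest control. That call was lost without control library 2 (adjusted p = 0.104), control library 3 (0.0938) or tumor library 1 (0.0924) and in 2 other alternatives. Mlst8, a subunit of both complexes, did not pass at 2361 ± 121 and 2413 ± 182, with a 95% interval of -0.17 to 0.23. Antisense exons of Bricd5, at 40.5 and 45.9 normalized counts, overlap 22.5% of its exonic bases.

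The inhibitory subunits of mTOR differed in direction. Akt1s1 encodes PRAS40, an inhibitor of mTOR complex 1 that AKT inactivates. It rose 2.36-fold, from 538.2, 562.4 and 574.2 to 1352, 1498 and 1130 (log2 1.24 ± 0.12 SE, limma adjusted p = 1.35e-05), with no overlap. Deptor, whose product inhibits both complexes, fell 1.67-fold from 1159, 1290 and 1314 to 648.5, 781.5 and 832.3 (limma adjusted p = 0.000438).

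At the TSC and RHEB switch, the brake did not pass the test. Tsc1 was at 3442 ± 200 and 3624 ± 228, and Tsc2 at 3975 ± 236 and 3857 ± 399, with 95% intervals of -0.12 to 0.27 and -0.26 to 0.17 on the log2 scale. Rheb, the activator of mTOR complex 1 that they hold inactive, fell 1.37-fold from 8974, 8212 and 8431 to 6833, 5395 and 6562 (limma adjusted p = 0.00295). Ddit4 encodes REDD1, a stress-induced protein that acts through TSC to lower mTOR complex 1 activity. It rose 1.57-fold, from 2451, 2043 and 2276 to 3644, 3622 and 3353 (log2 0.65 ± 0.09 SE, limma adjusted p = 0.000163), and every tumor exceeded every control.

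Among the Rag GTPases, which bring mTOR complex 1 to the lysosome as pairs of RagA or RagB with RagC or RagD, 2 of 3 members fell. Rraga had 7844, 7110 and 7374 in control and 5026, 3852 and 4745 in tumor, a fall of 1.65-fold (limma adjusted p = 0.000218). Rragd, which TFEB family factors are known to induce, fell 2.09-fold from 8236, 8368 and 7654 to 3512, 3461 and 4746 (log2 -1.06 ± 0.12 SE, limma adjusted p = 3.63e-05). Rragc, at 4699, 4806 and 4818 against 4284, 3822 and 4476, had all tumors below all controls but did not pass (adjusted p = 0.0725, limma). Per kilobase, Rraga had the highest level of the 35 members in both groups, at 4600 ± 230 and 2806 ± 379. Rragd made up 52.2% ± 1.37 of the summed RagC and RagD transcripts in control and 37.4% ± 3.04 in tumor, so Rragd was the larger of the pair in every control and the smaller in every tumor.

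The S6 kinases carry the signal of mTOR complex 1 to the ribosome. Rps6kb1 rose 1.31-fold, from 5081, 4689 and 4882 to 6450, 6034 and 6775 (limma adjusted p = 0.00168), with no overlap. Rps6kb2 did not pass at 918.4 ± 106 and 849.4 ± 204, and 23.7% of its exonic bases are shared with opposite-strand genes, among them Coro1b at 2821 and 3429 normalized counts.

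In the AMPK branch, Stk11, the gene of the upstream kinase LKB1, had 2105, 2166 and 2198 in control and 3736, 4744 and 3288 in tumor. It rose 1.80-fold (log2 0.85 ± 0.13 SE, limma adjusted p = 0.000223), with tumor library 2 again the highest. Prkaa2, which encodes the alpha 2 catalytic subunit of AMPK, fell 1.38-fold from 2073 ± 75.6 to 1513 ± 253 (limma adjusted p = 0.00878). Prkaa1, the alpha 1 subunit gene, did not pass at 3069 ± 135 and 2689 ± 155, although all tumors lay below all controls.

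**Figure D3:**
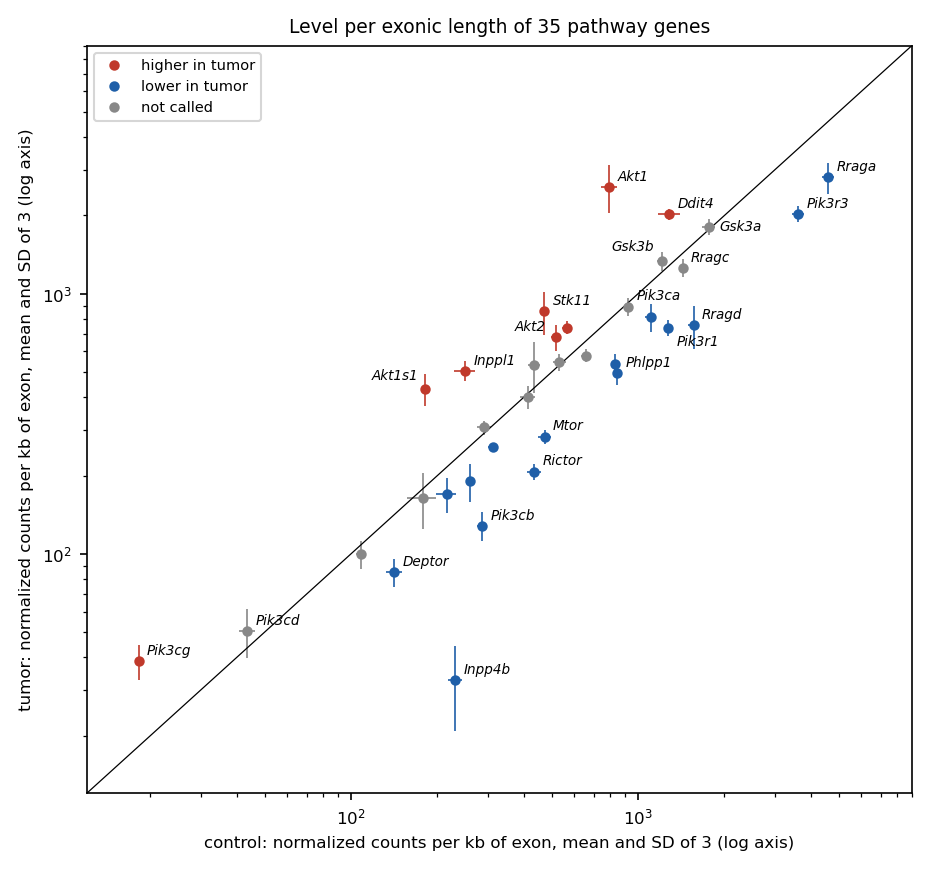
Mean level per kilobase of exon in control (horizontal, log axis) and tumor (vertical, log axis) of the 35 genes, with SD bars over 3 libraries and the line of equal levels. Akt1 stands farthest above the line and Inpp4b farthest below it, and Rraga has the highest level in both groups.

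Ratios of related genes within a library do not depend on its size factor, so they show whether the balance of a pair differed. With 3 against 3 libraries an exact two-sided permutation test cannot go below p = 0.1. Of 12 pairs, 9 reached that smallest value in the exact permutation test (0.133 when adjusted over the pairs) and their groups did not overlap. The other 3 pairs overlapped. Of single genes tested, 67.7% did not overlap, but no such share was computed for ratios of other gene pairs. The largest shift was that of Akt1 over Akt2, from a log2 ratio of -0.18 ± 0.12 to 1.11 ± 0.13, a change of 2.45-fold. Pik3ca over Pik3cb followed, from 2.03 ± 0.05 to 3.14 ± 0.14, a change of 2.16-fold. Pik3r1 over Pik3r2 went from 2.83 ± 0.07 to 1.76 ± 0.41, and Pik3cd over Pik3cg from 0.82 ± 0.06 to -0.05 ± 0.53, where tumor library 2, at 0.56, stood apart from -0.35 and -0.36 in the others. Without tumor library 2 that last difference was -1.17, beside -0.87 with it.

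The balance also shifted between mTOR complex subunits and between Rag genes. Rptor over Rictor went from -1.34 ± 0.15 to -0.63 ± 0.14, a change of 1.64-fold, since Rictor fell more. Rragc over Rragd went from -0.76 ± 0.08 to 0.12 ± 0.19, a change of 1.83-fold. Phlpp1 over Phlpp2 went from 1.12 ± 0.01 to 0.62 ± 0.15. Smaller shifts without overlap were those of Prkaa1 over Prkaa2 (0.28, or 0.16 without tumor library 2) and Tsc1 over Tsc2 (0.12). The groups overlapped for Rps6kb1 over Rps6kb2 (exact permutation p = 0.3), Gsk3a over Gsk3b (p = 0.4) and Pik3r1 over Pik3r3 (p = 0.6). In the last pair both genes fell, with a log2 ratio of -0.57 ± 0.11 in control and -0.52 ± 0.01 in tumor.

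**Figure D4:**
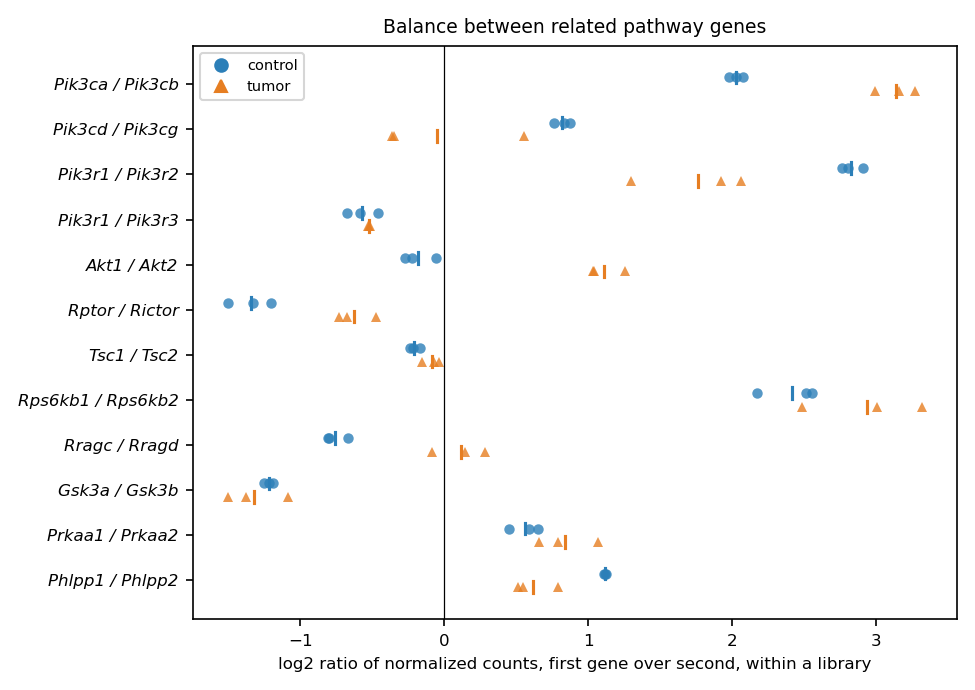
Log2 ratio of normalized counts of 12 pairs of related genes within each library (circles control, triangles tumor), with the group means as short lines. The ratio Akt1 over Akt2 lies below 0 in the controls and near 1.11 in the tumors, while Pik3r1 over Pik3r3 overlaps.

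Genes around the pathway were taken from 8 lists chosen by name. For comparison with the counts below, 30.6% of all genes tested rose and 31.5% fell. Other phosphoinositide phosphatases were lower almost throughout: of 12, 10 fell, 1 rose and 1 did not pass, and the list median was -1.14 (log2 fold change). Inpp5j, a phosphatase of PI3K products, fell 12.3-fold from 3524 ± 170 to 289.6 ± 54.6, and Synj2, a synaptojanin gene, fell 6.12-fold. Inpp5k fell 1.29-fold, and Inpp5d, the gene of the blood cell phosphatase SHIP1, rose 3.59-fold from 242.0 ± 7.71 to 870.8 ± 31.3. Of 7 genes for other PI3K subunits and adaptors, 2 rose and 3 fell, with a median of 0.02 that turned to -0.05 without tumor library 2 and was 0.06 without tumor library 3. Pik3ap1, an adaptor gene of B cells and macrophages, rose 4.10-fold from 56.4 ± 5.35 to 234.4 ± 24.1, and Pik3r5, the gene of a regulatory subunit of the gamma kinase, rose 2.45-fold. Pik3r6, its counterpart, fell 1.86-fold, a call lost in 3 alternatives that leave out a library, and Pik3c2g fell 7.36-fold from 48.7 ± 21.9 to 5.65 ± 2.44. The microglia and macrophage markers given above rose beside Inpp5d, Pik3ap1 and Pik3r5, and their part was not tested.

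Of 22 receptors and adaptors upstream of PI3K, 8 rose and 8 fell, and the list median was -0.07 (log2 fold change), or 0.08 without tumor library 1. Pdgfra, the alpha receptor of platelet-derived growth factor, rose 9.60-fold from 2120 ± 203 to 20311 ± 884, and Met, the receptor of hepatocyte growth factor, rose 6.36-fold from 33.6 ± 10.1 to 217.4 ± 55.1. Kit, a receptor gene of cerebellar interneurons, fell 6.41-fold from 18177 ± 994 to 2868 ± 565, and Erbb3, a neuregulin receptor gene, fell 5.53-fold. Irs1, which links insulin-like growth factor receptors to PI3K, rose from 2277 to 14200 normalized counts on average (log2 2.65), and Igf1r rose from 729.6 to 1384 (log2 0.92). Their relatives differed: Insr, the insulin receptor gene, and Irs2 did not pass (log2 -0.05 and -0.09), and Irs4, at low values, fell (log2 -2.18, limma adjusted p = 0.00844). These 5 genes were named after their values were seen.

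Downstream, 8 of 14 substrates and effectors of mTOR complex 1 rose and 3 fell, with a median of 0.34. Eif4ebp1, which encodes a translation repressor that the complex inactivates, rose 10.5-fold from 45.96 ± 4.96 to 490.9 ± 50.3, and Rps6, the gene of ribosomal protein S6, rose 3.86-fold from 3948 ± 220 to 15300.5 ± 1891. Tfeb, a transcription factor gene of lysosome biogenesis, fell 1.92-fold, and Atg13, an autophagy gene, fell 1.87-fold. Of 15 AKT substrates, SGK kinases and FOXO factors, 5 rose and 6 fell, with a median of -0.10, or -0.27 without tumor library 2. The FOXO gene Foxo6 rose 27.6-fold from 16.7 ± 4.75 to 481.5 ± 101 and Foxo4 rose 2.02-fold, while Sgk2 fell 11.8-fold and Sgk1, a kinase related to AKT, fell 2.89-fold.

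In the amino acid sensing and AMPK lists, more genes fell than rose. Of 24 genes for amino acid sensing at the lysosome, 4 rose and 10 fell, with a median of -0.23. Rragb, the RagB gene, fell 2.26-fold and Flcn, a regulator of RagC and RagD, fell 1.72-fold. Seh1l and Sec13 rose 2.38-fold and 2.21-fold; their products also serve in the nuclear pore. Of 11 AMPK subunits and kinase partners, 2 rose and 7 fell, with a median of -0.31. Camkk2, a calcium-dependent kinase of AMPK that is abundant in neurons, fell 7.57-fold from 13629 ± 227 to 1821 ± 352, and Prkag3 fell 2.95-fold at a low level. Prkab1 and Prkag1, the genes of a beta and a gamma subunit, rose 1.77-fold and 1.26-fold. Of 8 other subunits and assembly factors of the mTOR complexes, 3 rose and 2 fell, with a median of 0.39, or 0.24 without tumor library 2. Mapkap1, which encodes the SIN1 subunit of complex 2, rose 1.55-fold from 2229 ± 180 to 3460 ± 141, opposite to Rictor, its partner in that complex. Tti1 rose 1.48-fold and Tti2 fell 1.62-fold, although their products act in 1 assembly complex, and Prr5l fell 2.76-fold. Of the amino acid sensing genes 58.3% were called and of the AMPK genes 81.8%, beside 62.1% of all genes tested. Of the 14891 genes above 50 normalized counts in 3 or more libraries, 5782 rose and 5645 fell. The lists were not set against genes of like expression, and no list was tested as a set.

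**Figure D5:**
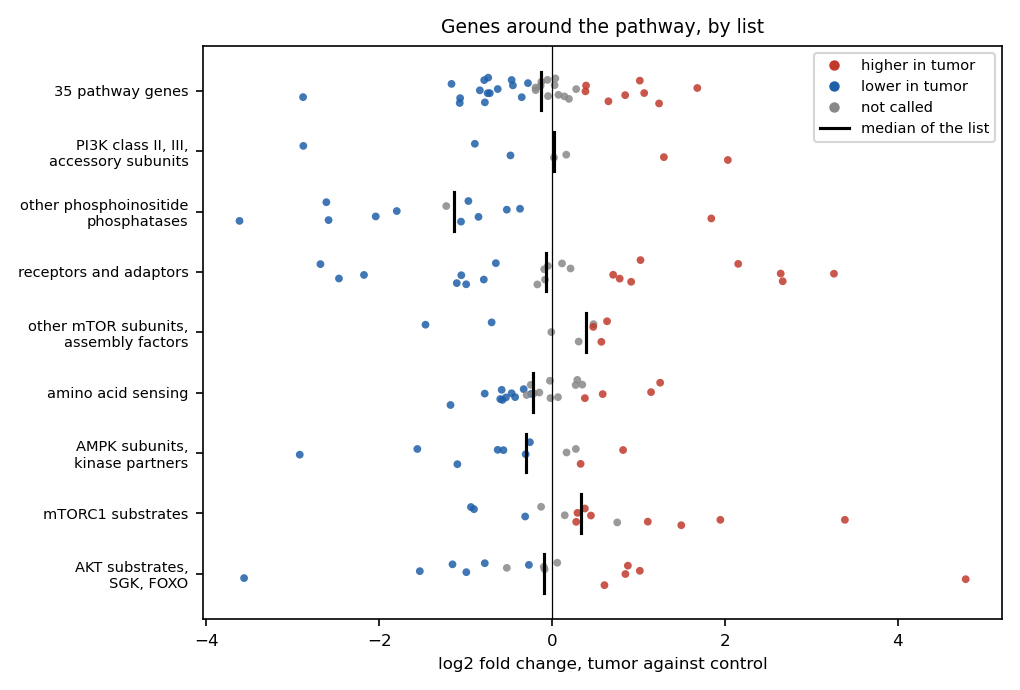
Log2 fold change of tumor against control of each gene in the 35 members and in 8 lists around the pathway, with list medians as black lines. Other phosphoinositide phosphatases lie mostly below 0, with a median of -1.14, and the substrates of mTOR complex 1 lean above it, with a median of 0.34.

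Of the 35 members, 22 had an FDR under 0.05 in the authors' deposited table that covers all genes. The authors' deposited shorter list of 2654 genes holds 2 of them, Akt1 and Inpp4b. Akt1 has an FDR of 8.77e-09 in the authors' deposited table of every gene and 0.0479 in the authors' deposited shorter list. Inpp4b has 1.26e-81 and 0.0230 in these authors' deposited tables. The sources used here do not say how the shorter list was made.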

How the data were processed

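The files hold RNA-seq of 3 control cerebella and 3 medulloblastomas, grouped by the sample titles. Per the labels' protocols, RNA was extracted with TRIzol and a column cleanup and made into TruSeq libraries. The submitters' processing notes list Bowtie2 2.2.4, featureCounts, edgeR and FastQC and the build mm10, without roles. No annotation release, counting option or strand setting is given in the sources used here.

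The authors' deposited signal for each gene and library equals its reads over a size factor of that library: 100% of the nonzero values were whole multiples of what 1 read is worth there, within a relative 1e-06. The size factors were 0.841 to 1.38. A floor of 3 reads is 2.17 to 3.57 normalized counts, for counting error only. The FDR columns (adjusted p-values) of the authors' deposited tables entered no test made here. Replicate libraries were not alike within sampling noise, with a chi-square per degree of freedom of at least 10.9.

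Because the values are normalized, limma 3.58.1 (R 4.3.3, trend of variance with mean) was run on log2(value + 1). Genes needed to exceed 1 in 3 or more libraries, which left 22117. Fold changes and 95% intervals are on this scale. The limma p-values were adjusted over all genes tested. Permutation p-values of the ratios were adjusted over the 12 pairs, and those given as exact are not adjusted. Levels per kilobase use the union of exons in GENCODE M21 (GRCm38), which may differ from the authors' annotation. The script was tested on simulated data. Genes of other lists were named by a rule: of the genes called in a list, the 2 at each end of the log2 fold changes, and by p where fewer than 4 were called. The members, lists, pairs and rule were chosen with earlier results of these data known. Alternatives changed scaling, pseudocount, filter, test and libraries, with edgeR 4.0.16 and DESeq2 1.42.0 on the recovered reads. On those reads, edgeR's quasi-likelihood test called 6800 genes higher and 6611 lower, against 6761 and 6977 with limma.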

Additional observations from a re-analysis of the deposited data

How the results depend on the processing

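Of the 23 called members, 21 (8 higher and 13 lower) stayed called in the same direction in all 18 alternatives. The exceptions were Rptor, called in 13 of 18, and Phlpp2, whose adjusted p was 0.0818 with library totals and 0.0560 without control replicate 2. Among the 12 members not called, Pik3r2, Rragc, Gsk3b and Prkaa1 were each called in 2 alternatives and the other 8 in none. Counts over the alternatives ran from 8 to 9 higher and from 13 to 17 lower, and edgeR and DESeq2 were among them. The median log2 fold change of the members was -0.21 with upper-quartile scaling and -0.036 with library totals. These scalings moved the median of all genes to -0.10 and 0.07, from -0.02.

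Members not called changed sign near 0 in some alternatives: Pik3ca was 0.044 with library totals. Mlst8 was -0.052, Tsc1 -0.0074 and Gsk3a -0.043 with upper-quartile scaling, and Tsc2 was 0.050 with library totals. With 1 library left out, log2 fold changes ran from -0.095 to 0.015 for Pik3ca, from -0.0097 to 0.093 for Mlst8, from -0.13 to 0.0017 for Tsc2, from -0.32 to 0.018 for Rps6kb2 and from -0.016 to 0.077 for Gsk3a, the sign turning without tumor replicate 2 for Pik3ca and Gsk3a, without tumor replicate 3 for Mlst8 and Rps6kb2, and without control replicate 2 or tumor replicate 1 for Tsc2. The ratio of Pik3r1 to Pik3r3 was -0.00052 without control replicate 3, in a range of -0.00052 to 0.11, and that of Prkaa1 to Prkaa2 ran from 0.16 to 0.37.

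For other lists, with library totals the median of PI3K subunits and adaptors was 0.12, that of amino acid sensing -0.13 and that of mTOR complex 1 substrates 0.43, and 4 AMPK genes were higher. With upper-quartile scaling the amino acid sensing median was -0.31 and the substrate median 0.26, which was 0.29 with a value over 50 required. Leaving out 1 library, the medians ran from -0.050 to 0.064 for PI3K subunits and adaptors, from 0.24 to 0.43 for mTOR complex subunits and assembly factors, from -0.081 to 0.078 for receptors and adaptors, from -0.21 to -0.18 for amino acid sensing and from -0.27 to -0.038 for AKT substrates, SGK kinases and FOXO factors. The causes were not tested. Of 32 genes named from these lists by the rule, 31 kept their call in every alternative run, Pik3r6 being the exception. Irs1, Igf1r, Insr, Irs2 and Irs4, named outside the rule, were not checked in this way.

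Replicate numbers are shared by the groups, but the labels do not say that they pair samples. Deviations of same-numbered libraries from their group means correlated at 0.02, -0.05 and -0.0073 over genes. A fit with the replicate block called Pik3r2 (adjusted p = 0.0473) and changed no other member's call. Over all genes it called 6744 higher and 6943 lower, against 6761 and 6977 without the block.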
